A study of Homo sapiens with 2 samples.

Results

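The promoters of the 4 human HOX clusters were examined in promoter-capture Hi-C of K562, an established cell line from a chronic myelogenous leukaemia that carries the BCR-ABL1 fusion. A HOX gene was taken as a member when either of its ends, in the RefSeq gene table, lay on a captured (bait) fragment that at least 1 of the deposited lists names. Of 38 HOX genes, 35 met that rule, among 13721 genes that did so in all. They lay on 34 of the 17883 listed bait fragments. HOXA9, HOXB7 and HOXD10 had no listed bait fragment by this rule and are not described further.

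One library came from cells given the vehicle DMSO and the other from cells given ponatinib, a drug against the kinase of that fusion, at 100 nM for 24 h. The number of cells was the same for both. Chromatin was crosslinked, cut with HindIII and ligated, and RNA probes then enriched the ligation products that hold a promoter fragment. The deposited values are lists of fragment pairs, each with a score of the authors' own whose definition is not given in the sources used here. No score is below 5. The lists hold no read counts, so the depth behind each pair is unknown, and no expression value, so neither the cell type nor HOX expression could be checked from them. With 1 library per treatment there is no replicate and no test of the treatment. The intervals given are 95% intervals for counting error only, and treat pairs as independent, which pairs of neighbouring fragments are not.

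HOX genes encode homeodomain transcription factors that give cells their position along the body axis and also act in blood progenitors. They lie in clusters in which the order of the genes follows their order of action along the axis, from the anterior groups (numbers 1 and up) to the posterior groups (up to 13). On the chromosome, coordinates rise from anterior to posterior genes in HOXA and HOXB and from posterior to anterior genes in HOXC and HOXD. In embryonic limbs the HOXD cluster is known to sit between a pair of contact domains, with anterior genes contacting one flank and posterior genes the other.

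The sequences below are promoter windows of 300 bases, from 250 before to 50 after a transcription start, from RefSeq on build GRCh38. They are shown for genes at the places where outward contacts change side within HOXA and HOXD, and for the partner fragment that most HOXD fragments contacted. HOXA10 and HOXA11 encode posterior-group factors on adjacent fragments, and HOXD12 and HOXD11 are neighbouring posterior genes at the change in HOXD. LINC01116 is a long noncoding RNA gene. Capitals mark, in HOXA10, the core of the motif of the insulator protein CTCF (CCA, any 2 bases, AG, any 2 bases, GGC), and TGATNNAT, the site bound jointly by HOX and PBX factors, on the opposite strand in HOXD11. Both strands were searched, and the other windows hold neither.
HOXA10, chr7:27179812-27180111, minus strand: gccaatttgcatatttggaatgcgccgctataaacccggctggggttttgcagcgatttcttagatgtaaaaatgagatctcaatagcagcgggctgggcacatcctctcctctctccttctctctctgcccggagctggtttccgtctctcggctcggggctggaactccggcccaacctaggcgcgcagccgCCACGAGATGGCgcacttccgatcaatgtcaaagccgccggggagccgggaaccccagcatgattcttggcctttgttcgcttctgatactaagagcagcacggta
HOXA11, chr7:27185183-27185482, minus strand: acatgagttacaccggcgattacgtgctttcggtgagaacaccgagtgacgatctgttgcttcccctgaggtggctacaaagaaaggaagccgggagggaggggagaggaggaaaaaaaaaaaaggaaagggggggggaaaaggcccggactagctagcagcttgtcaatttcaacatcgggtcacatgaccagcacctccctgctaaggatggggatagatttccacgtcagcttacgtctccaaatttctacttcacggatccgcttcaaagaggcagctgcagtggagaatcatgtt
HOXD12, chr2:176099545-176099844, plus strand: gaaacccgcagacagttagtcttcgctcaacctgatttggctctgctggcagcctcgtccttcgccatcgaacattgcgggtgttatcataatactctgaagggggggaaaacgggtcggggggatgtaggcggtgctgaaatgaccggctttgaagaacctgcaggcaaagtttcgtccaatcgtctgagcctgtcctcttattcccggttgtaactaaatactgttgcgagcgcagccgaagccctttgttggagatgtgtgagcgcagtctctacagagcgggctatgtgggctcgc
HOXD11, chr2:176107030-176107329, plus strand: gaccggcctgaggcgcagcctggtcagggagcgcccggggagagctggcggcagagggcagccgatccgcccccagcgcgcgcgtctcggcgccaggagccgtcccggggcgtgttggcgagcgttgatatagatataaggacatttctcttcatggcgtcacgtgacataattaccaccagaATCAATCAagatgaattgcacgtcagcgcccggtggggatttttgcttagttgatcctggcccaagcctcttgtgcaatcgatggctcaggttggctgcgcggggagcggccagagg
LINC01116, chr2:176637560-176637859, minus strand: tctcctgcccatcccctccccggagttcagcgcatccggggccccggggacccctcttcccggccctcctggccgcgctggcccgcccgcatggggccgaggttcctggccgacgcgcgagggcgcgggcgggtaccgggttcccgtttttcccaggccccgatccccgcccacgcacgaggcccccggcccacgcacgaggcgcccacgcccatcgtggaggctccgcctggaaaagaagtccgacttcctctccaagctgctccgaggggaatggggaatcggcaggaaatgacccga

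The promoter table held 20 of the 38 HOX genes in 26 windows. The CTCF core was in 1 of the 26, the HOXA10 window shown above, and in 2.41% of 34943 windows of all genes. Another HOXA10 window, chr7:27174271-27174570, holds none. The HOX and PBX site was in 3 of 26, those of HOXA2, HOXB1 and HOXD11, against 7.42% of all windows. AGATAA, the motif of GATA factors, was in 2 of 26 HOX windows, both of HOXA3, against 10.4%. The median number of CpG dinucleotides was 22.5 in HOX windows and 14 in all windows. These matches describe letters within the windows only and say nothing of binding.

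HOX promoters were richly listed. The 34 fragments took part in 435 of the 84049 DMSO pairs (0.518%) and 461 of the 91305 ponatinib pairs (0.505%), of which 219 were the identical pair in both lists. The median HOX fragment had 8.5 pairs in DMSO and 9 in ponatinib, with ranges of 1 to 42 and 0 to 57, where the median over all bait fragments was 3 in each list. The fragment at the 3′ end of HOXA13 (chr7:27190655-27198793), a gene needed for digits and the urogenital tract, had 42 and 57 pairs. The fragment with the start of HOXB3 and the 3′ end of HOXB5 (chr17:48583102-48591447) had 38 and 57, and only 33 bait fragments of the ponatinib list had more. At the other end, HOXB1, active in the hindbrain, had 1 pair in DMSO and 2 in ponatinib.

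The 4 clusters differed in how far their contacts reached. HOXA, 99.7 kb from its first to its last gene, had a median outward distance of 732 kb in DMSO (716 to 751) and 751 kb in ponatinib (734 to 798). HOXD, of 103 kb, had 525 kb (505 to 546) and 535 kb (514 to 731). The HOXB cluster, of 200.2 kb because HOXB13 lies apart, had 310.1 kb (283 to 333) and 313 kb (292 to 336). HOXC, of 117 kb, reached least far, with 206 kb (190 to 216) and 209 kb (199 to 222). The order HOXA, HOXD, HOXB, HOXC was the same in both libraries. The intervals of the clusters did not overlap in either library, although those of HOXA and HOXD came near in ponatinib. The median over all same-chromosome pairs was 234 and 242 kb, which lies between HOXC and HOXB.

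**Figure D1:**
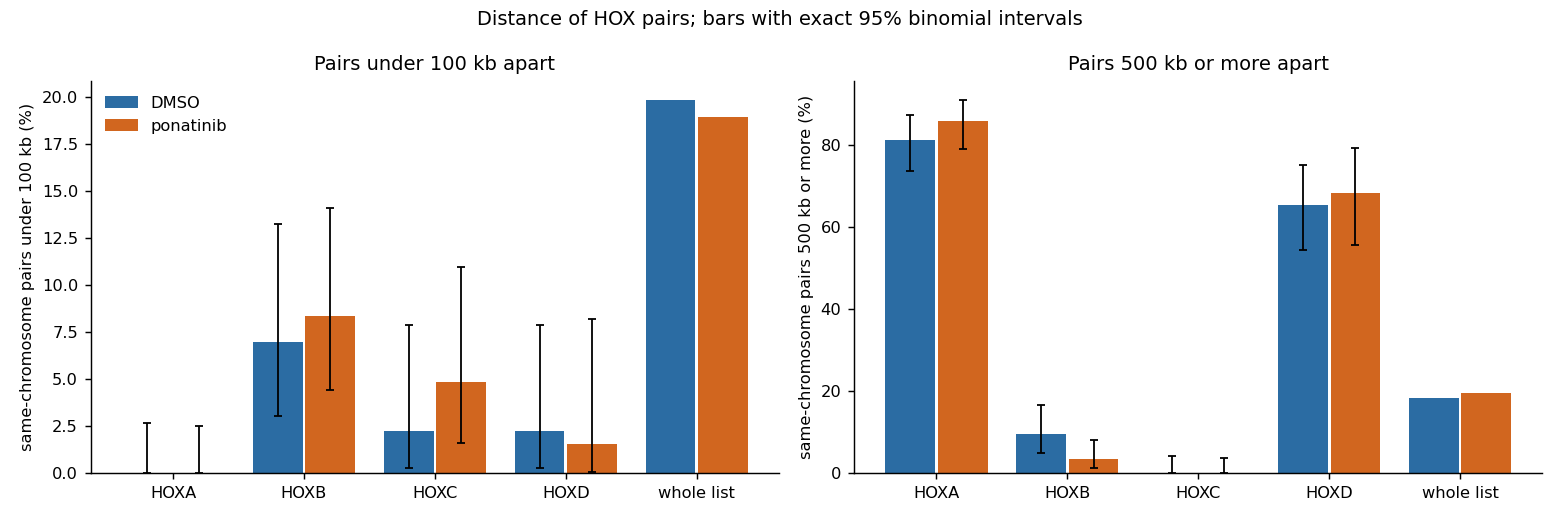
Share of same-chromosome pairs under 100 kb (left) and of 500 kb or more (right), in percent, for each HOX cluster and for each whole list, DMSO in blue and ponatinib in orange. Bars start at 0, and the lines are exact 95% binomial intervals for the clusters; HOXA and HOXD have most pairs beyond 500 kb and HOXC has none there.

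Long contacts made up most of HOXA and HOXD. In HOXA, 112 of the 138 DMSO pairs on one chromosome (81.2%, 73.6 to 87.3) spanned 500 kb or more, as did 126 of 147 with ponatinib (85.7%, 79.0 to 90.9). In HOXD they were 65.2% (54.3 to 75.0) and 68.2% (55.6 to 79.1), in HOXB 9.57% (4.87 to 16.5) and 3.47% (1.14 to 7.92), and in HOXC 0 of 89 and 0 of 103. The whole lists had 18.2% and 19.6%. Short contacts were few in all 4 clusters. Of all HOX pairs on one chromosome, 12 of 431 in the DMSO list (2.78%, 1.45 to 4.81) were under 100 kb, and 18 of 460 in the other (3.91%, 2.34 to 6.11), where the whole lists had 19.8% and 18.9%.

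Contacts between genes of the same cluster were nearly missing from the lists. HOXA had 0 of 139 pairs within its span in DMSO and 0 of 148 in ponatinib, counts that allow up to 2.16% and 2.03%, taken as 3 counts of the total. HOXD had 0 of 89 and 0 of 66, which allow up to 3.37% and 4.55% in the same way. HOXB had 2 of 115 (1.74%, 0.211 to 6.14) and 6 of 144 (4.17%, 1.54 to 8.85), and HOXC had 2 of 92 (2.17%, 0.264 to 7.63) and 4 of 103 (3.88%, 1.07 to 9.65). The HOXB pairs in both lists joined the 3′ end of HOXB3 to the fragment of its start (score 7.72 in DMSO and 5.15 in ponatinib) and HOXB13 to the stretch below it (5.27 and 5.73). The HOXC pairs in both lists joined HOXC10 to HOXC9 (6.49 and 5.74) and the shared start of HOXC4, HOXC5 and HOXC6 to the neighbouring HOXC5 and HOXC6 fragment (7.80 and 8.37). No within-cluster pair scored 10 or more. No pair joined one cluster to another, and 4 DMSO pairs and 1 ponatinib pair joined a HOX fragment to another chromosome; none of the 5 was in both lists.

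In HOXA the side to which a promoter reached followed its place in the cluster. Anterior HOXA genes contacted the lower flank and posterior HOXA genes the higher flank, each therefore the flank next to its own end of the cluster. From HOXA2 to HOXA7, 25 of 26 outward DMSO pairs (96.2%, 80.4 to 99.9) and 16 of 16 outward ponatinib pairs (100%, 79.4 to 100) lay on the lower side. From HOXA10 to HOXA13, 110 of 112 (98.2%, 93.7 to 99.8) and 126 of 131 (96.2%, 91.3 to 98.7) lay on the higher side. These stretches were chosen after the values were seen, so their shares are a description.

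The change in HOXA fell on the fragment that holds the start of HOXA10 and the 3′ end of HOXA11 (chr7:27176550-27181782). A link between the change and the CTCF core in the HOXA10 window printed above was not tested. The HOXD12 and HOXD11 windows printed for the change in HOXD hold no such core. Sequence outside the promoter windows was not searched, so a link in HOXD was not tested either. The HOXA10 and HOXA11 fragment had 1 pair on the lower side and 6 on the higher side in DMSO, and 3 and 4 in ponatinib. The next fragment, with the start of HOXA11, had 0 and 25 in DMSO, and the nearest listed fragment below, shared by HOXA3, HOXA5, HOXA6 and HOXA7, had 11 and 1. So the direction turned over these 3 neighbouring listed fragments in DMSO.

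**Figure D2:**
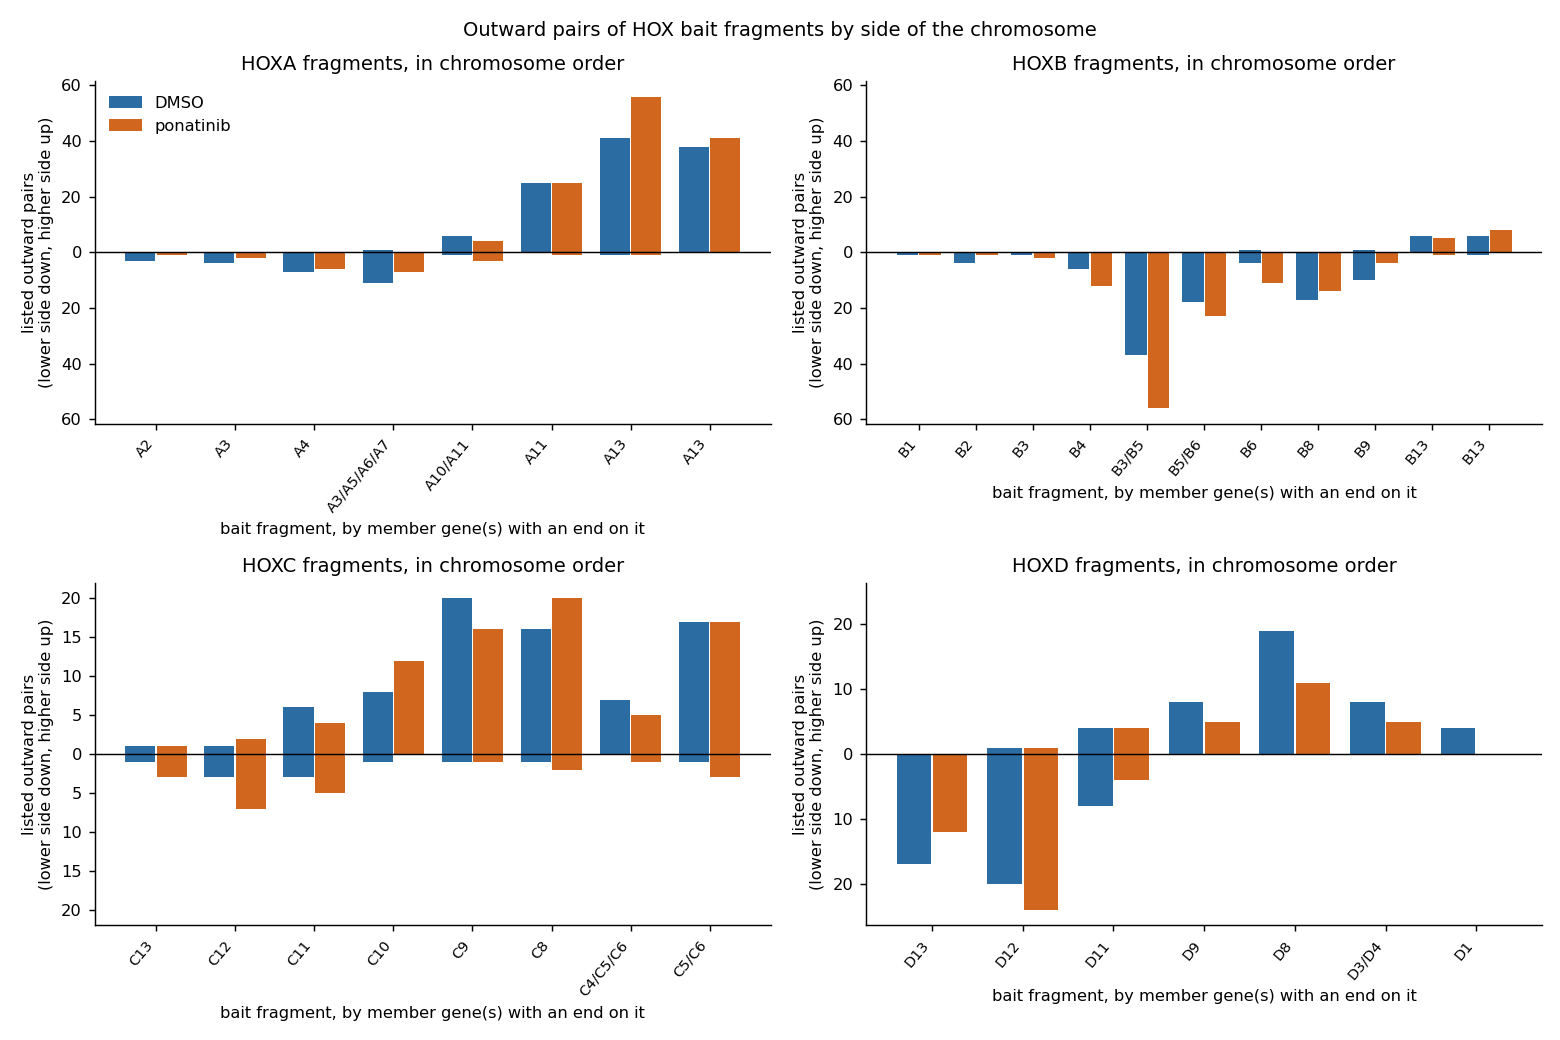
Number of listed outward pairs of each HOX bait fragment, in chromosome order within its cluster, with pairs toward lower coordinates drawn down and pairs toward higher coordinates drawn up, DMSO in blue and ponatinib in orange. In HOXA and HOXD the bars change side within the cluster, in HOXB they point down except at HOXB13, and in HOXC they point mainly up from HOXC10 to HOXC4, with both directions at HOXC11, HOXC12 and HOXC13.

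HOXD showed the same kind of change, in mirror image on the chromosome. From HOXD1 to HOXD9, 39 of 39 outward pairs in DMSO (91.0 to 100%) and 21 of 21 in ponatinib lay on the higher side. HOXD8 and HOXD9, the most posterior genes of this stretch, had 19 and 8 of these in DMSO and 11 and 5 in ponatinib. HOXD12 and HOXD13, the posterior end, had 37 of 38 (97.4%, 86.2 to 99.9) and 36 of 37 on the lower side. HOXD11 stood between them, with 8 lower and 4 higher pairs in DMSO and 4 of each in ponatinib. The bait fragment chr2:176091257-176094047 lies inside HOXD13 and holds the start that the promoter table gives for that gene, but neither end of the gene in the gene table, so it is no member. It had 18 of 18 pairs on the lower side in DMSO and 21 of 22 in ponatinib, as the HOXD13 fragment counted here did.

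HOXB and HOXC each had 1 main direction. From HOXB1 to HOXB9, 98 of 100 outward DMSO pairs (98.0%, 93.0 to 99.8) and 124 of 124 outward ponatinib pairs lay on the lower side. HOXB13, a posterior gene expressed in prostate and hindgut, lies beyond a gap in the cluster and had 12 of 13 and 13 of 14 on the higher side. From HOXC4 to HOXC10, 68 of 72 (94.4%, 86.4 to 98.5) and 70 of 77 pairs lay on the higher side, past the anterior end. HOXC11, HOXC12 and HOXC13 together had 7 of 15 on the lower side in DMSO and 15 of 22 in ponatinib, with intervals of 21.3 to 73.4% for the first, so their direction was not settled at this number of pairs.

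In HOXA and HOXB most partners lay inside a few large genes. For HOXA the higher flank was JAZF1, a zinc finger gene, whose body was touched by 89 HOXA pairs in DMSO and 105 in ponatinib. TAX1BP1, an autophagy receptor, took 15 and 11, and HIBADH, a mitochondrial enzyme of valine breakdown, 7 and 9. On the lower flank SKAP2, an adaptor protein of SRC-family kinase signalling, took 19 and 11. In HOXB the flank was SKAP1, the related adaptor of T cells, with 89 and 118 pairs. Only 1 of the JAZF1 pairs, in ponatinib, and none of the SKAP1 or SKAP2 pairs lay on a fragment with an end of that gene. Among the neighbour genes listed for each cluster, 5 of 10 for HOXA, 9 of 12 for HOXB, 8 of 11 for HOXC and 5 of 9 for HOXD had at least 1 pair. PRAC1 and PRAC2 of the HOXB list and EVX2 of the HOXD list had none. Each has an end on a HOX bait fragment, of HOXB13 or HOXD13, and pairs of that fragment were not counted for it.

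**Figure D3:**
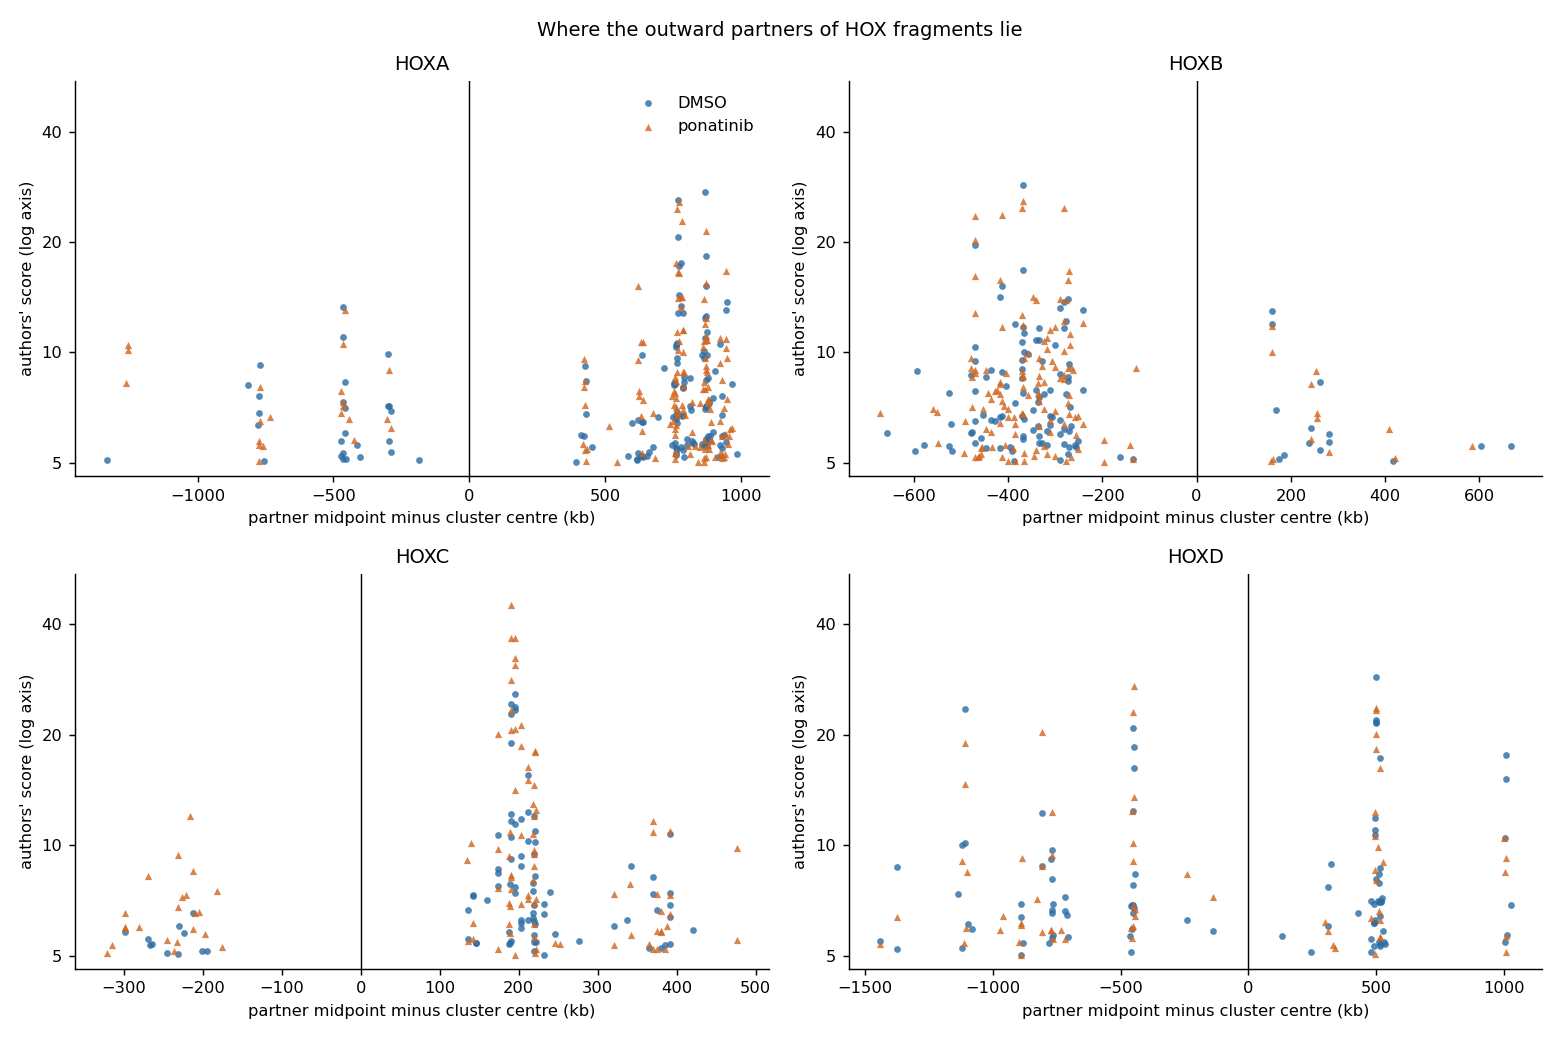
Position of every outward partner fragment, as its midpoint minus the centre of the HOX cluster in kb, against the authors' score on a log axis, one panel per cluster, DMSO as blue circles and ponatinib as orange triangles. Partners lie on both sides in HOXA and HOXD, mostly below HOXB and mostly above HOXC. Partner fragments found in both lists were 54 of 121 in HOXA and 42 of 91 in HOXB. They were 28 of 63 in HOXC and 32 of 74 in HOXD. These counts include partners on other chromosomes, which are not drawn.

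Single partner fragments were contacted by most of a cluster. In HOXC, the fragment chr12:54186661-54189296, with an end of SMUG1, a DNA glycosylase that removes uracil, was paired with 8 of 8 HOXC fragments in both lists. Its score with HOXC9 was 18.95 in DMSO and 45.3 in ponatinib, the highest of any HOX pair in either list. With HOXC8 it was 22.76 and 36.68, and with HOXC10 10.54 and 20.56. With HOXC12 and HOXC11, at the posterior end, it was 9.16 and 8.30, and 11.65 and 8.20. The score was higher in ponatinib for 6 of the 8, and the median of the 8 was 11.9 in DMSO and 21.9 in ponatinib. The adjoining fragment, which holds no protein-coding gene, was paired with 6 HOXC fragments in each list, and all 5 pairs that both lists held scored higher in ponatinib.

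In HOXD the common partner was the fragment chr2:176636715-176641357, itself a bait, which holds ends of the noncoding genes LINC01116 and LINC01117. Of 7 HOXD fragments 5 were paired with it in both lists, from HOXD12 down to the HOXD3 and HOXD4 fragment, at 486 to 539 kb. Its scores were 28.81 in DMSO and 23.61 in ponatinib with HOXD9, 21.96 and 23.42 with HOXD8, 21.63 and 20.15 with HOXD3 and HOXD4, 21.52 and 18.26 with HOXD11, and 8.07 and 8.01 with HOXD12. The score was therefore lower in ponatinib for 4 of the 5, and HOXD8 was the exception. On the posterior side, the fragment chr2:175690341-175691609 scored 18.56 and 27.24 with HOXD13 and 16.19 and 13.51 with HOXD12. There no protein-coding gene overlapped the fragments with the highest scores.

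HOXB fragments converged inside SKAP1. The fragment chr17:48152406-48163317 was paired with 6 of 11 HOXB fragments in DMSO and 7 in ponatinib, and all 5 pairs in both lists scored higher in ponatinib. With HOXB8 its score was 5.66 and 23.5, and with the HOXB5 and HOXB6 fragment 19.6 and 20.23. The fragment chr17:48259948-48260762, also within SKAP1, held the highest HOXB score of both lists, 28.65 and 25.87, with the HOXB3 and HOXB5 fragment. HOXA had no partner of that breadth in both lists. The SKAP2 fragment chr7:26680643-26692165 was paired with 5 of 8 HOXA fragments in DMSO and 3 in ponatinib, 2 of them in both, while in JAZF1 the fragment chr7:28080529-28085184 was paired with 4 in each list.

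The highest HOXA scores joined HOXA13 to JAZF1 at 719 to 824 kb. In DMSO the top pair scored 27.45, and the same pair scored 7.97 in ponatinib. In ponatinib the top pair, to another JAZF1 fragment, scored 25.75 against 17.23 in DMSO. The leading pair therefore differed between the libraries in HOXA, HOXC and HOXD and was the same in HOXB.

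Numbers of pairs per cluster in the libraries were close to the ratio of the whole lists, except in HOXD. The HOX promoters had 51.4% of their listed pairs in ponatinib (48.1 to 54.8), where the whole lists had 52.1%. HOXA had 139 pairs in DMSO and 148 in ponatinib, 51.6% in ponatinib (45.6 to 57.5). HOXB had 115 and 144 (55.6%, 49.3 to 61.7), HOXC 92 and 103 (52.8%, 45.6 to 60.0), and HOXD 89 and 66 (42.6%, 34.7 to 50.8). Of the 6 differences between clusters, that of HOXB over HOXD had an interval without 0, at 13.0 percentage points (3.07 to 22.6, Newcombe's interval). HOXA over HOXD was 8.99 points (-0.77 to 18.4) and HOXC over HOXD 10.2 points (-0.29 to 20.4). HOXD stayed below 50% under all alternatives run, from 37.6 to 48.6%, HOXB stayed above it, from 53.0 to 59.5%, and HOXA fell on both sides, from 48.4 to 60.7%. When only scores of at least 10 were counted, the HOXB and HOXD difference was 8.03 points and its interval held 0.

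Within HOXD, 6 of the 7 fragments had fewer pairs in ponatinib, and HOXD12 had more, 25 against 21. The fragments of HOXD1 to HOXD9 had 39 pairs in DMSO and 21 in ponatinib (35.0% in ponatinib, 23.1 to 48.4), while HOXD12 and HOXD13 together had 38 and 37 (49.3%, 37.6 to 61.1). HOXD13 alone had 17 and 12 (41.4%, 23.5 to 61.1), on a fragment that also holds an end of EVX2. The bait fragment inside HOXD13 that is no member went the other way, with 18 and 22. HOXD11 had 12 and 8. HOXD8 had 19 and 11, HOXD9 8 and 5, and the fragment shared by HOXD3 and HOXD4 8 and 5. HOXD1, the most anterior of the cluster, had 4 pairs in DMSO, with scores from 5.10 to 5.84, and 0 in ponatinib. These scores lie near the lowest that the lists hold. The anterior end of HOXA also had fewer pairs in ponatinib, 17 against 27 from HOXA2 to HOXA7 (38.6%, 24.4 to 54.5), where HOXA10 to HOXA13 had 131 against 112 (53.9%, 47.4 to 60.3). HOXB1 to HOXB9 had 129 against 101 (56.1%, 49.4 to 62.6). The differences between these stretches were not tested, since the stretches were chosen with their values known.

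By gene, 33 of the 35 HOX genes had at least 5 pairs over both lists. Of these, 2 had at least 2-fold more pairs in ponatinib, on the scale log2((ponatinib + 1)/(DMSO + 1)), against 9.92% of 9787 genes tested in all, and 1 had at least 2-fold fewer, against 6.26%. Shares of that size among 33 genes do not stand above the background. HOXB4, a regulator of blood stem cell growth whose fragment also holds the microRNA gene MIR10A, had 6 pairs in DMSO and 13 in ponatinib (log2 ratio 1.00). HOXC12, a posterior gene, had 4 and 9 (1.00), and HOXB9, a more posterior gene than HOXB4, had 11 and 5. Each lay exactly at the 2-fold limit, and the first 2 fell below it once list length was matched. The median log2 ratio was -0.17 over the 33 HOX genes and 0.08 over all genes tested, and genes on a common fragment, such as HOXA5, HOXA6 and HOXA7 with 12 and 7 pairs each, repeat the same count. HOXA4, an anterior-group gene, had 7 and 6, and HOXB2, which acts in the hindbrain, 4 and 3.

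Among the genes with the most pairs, HOXA13 had 80 pairs in DMSO and 98 in ponatinib over its 2 fragments (55.1% in ponatinib, 47.4 to 62.5), and HOXA11 had 32 and 33. The fragment at the 3′ end of HOXA13 had 42 and 57, and that with its start 38 and 41. HOXB5 had 56 and 80 (58.8%, 50.1 to 67.2) and HOXB3 39 and 61 (61.0%, 50.7 to 70.6), which have 1 fragment in common. Their lower bounds lie above 50% but not above the 52.1% of the whole lists. Most of these pairs lie on the common fragment, with the start of HOXB3 and the 3′ end of HOXB5. It had 38 and 57 pairs (60.0%, 49.4 to 69.9). The fragment with the start of HOXB5 had 18 and 23 (56.1%, 39.7 to 71.5). HOXB6 had 23 and 34, HOXB8 17 and 14, HOXC8 18 and 23, HOXC9 23 and 19, HOXC10 10 and 13, HOXD12 21 and 25, and HOXD13 17 and 12. The interval of each of these 7 holds 50%.

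Pairs in both lists were a similar share of each cluster in DMSO. In ponatinib they were a larger share of HOXD, whose 43 common pairs are set there against 66 pairs and not 89, so this share carries the smaller number already given. Of the DMSO pairs, 46.0% of HOXA (37.6 to 54.7), 56.5% of HOXB (47.0 to 65.7), 51.1% of HOXC (40.4 to 61.7) and 48.3% of HOXD (37.6 to 59.2) were also in ponatinib, against 44.3% of the whole list. Of the ponatinib pairs, 43.2% of HOXA, 45.1% of HOXB, 45.6% of HOXC and 65.2% of HOXD (52.4 to 76.5) were also in DMSO, against 40.7%. HOXA minus HOXD was -21.9 points (-34.8 to -7.42), HOXB minus HOXD -20.0 (-33.0 to -5.47) and HOXC minus HOXD -19.5 (-33.4 to -4.12). When both ends had only to lie within 5 kb, the HOXD share was 87.9% and the others 81.2 to 88.5%, so the difference of HOXD did not hold at that tolerance. With scores of at least 7, or gene ends within 1 kb of a fragment, the interval of HOXD against HOXB and against HOXC held 0. Sharing rose with score, as it did over the whole lists. In DMSO 83 of 237 HOX pairs with scores from 5 to 7 were shared (35.0%) and 76 of 85 with scores of at least 10 (89.4%), where the whole list had 29.4% and 84.0%.

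Over all pairs in both lists, fewer scored higher in ponatinib in HOXD than in the other clusters. The ponatinib score was the higher in 40 of 64 HOXA pairs (62.5%, 49.5 to 74.3), 45 of 65 HOXB pairs (69.2%, 56.6 to 80.1) and 32 of 47 HOXC pairs (68.1%), but in 16 of 43 HOXD pairs (37.2%, 23.0 to 53.3). Over the whole lists it was 53.6%. The difference from HOXD was 25.3 points for HOXA (5.98 to 42.1), 32.0 for HOXB (12.8 to 48.2) and 30.9 for HOXC (10.2 to 48.1). With scores of at least 7, and also of at least 10, the interval for HOXA held 0. That for HOXB held 0 with scores of at least 10. It also did so without the fragment with the most pairs in each cluster. In HOXD the higher-side pairs, mostly those of HOXD1 to HOXD9, scored higher in ponatinib in 4 of 17 and the lower-side pairs, mostly HOXD12 and HOXD13, in 12 of 26. Of the pairs that scored at least 18 in DMSO, 6 of 6 in HOXC, 1 of 4 in HOXA, 1 of 2 in HOXB and 3 of 7 in HOXD scored higher in ponatinib. The limit of 18 was chosen with the scores known, and picking pairs by a high DMSO score favours a lower score in ponatinib. Scores were not normalised between the lists, so these shares describe the lists and not the strength of contacts.

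**Figure D4:**
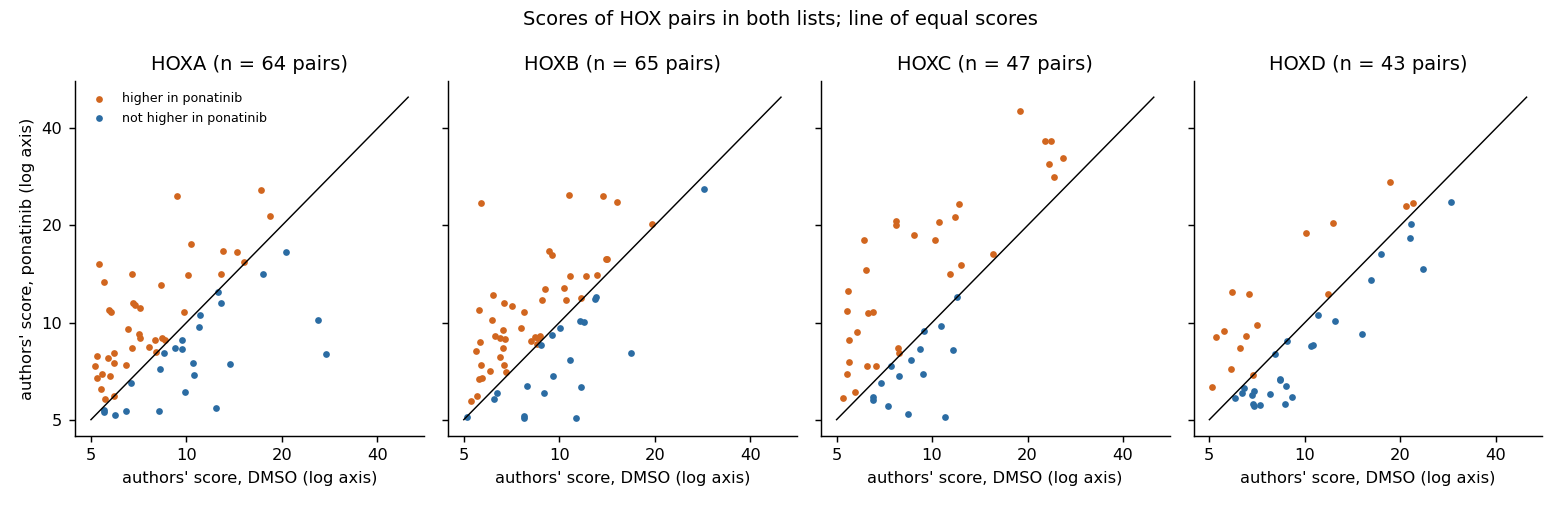
Authors' score in DMSO (horizontal) against ponatinib (vertical) for each HOX pair that both lists hold, both axes logarithmic, one panel per cluster, with the line of equal scores. Orange points scored higher in ponatinib; they are 40 of 64 in HOXA, 45 of 65 in HOXB, 32 of 47 in HOXC and 16 of 43 in HOXD.

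Partners that are themselves promoter fragments differed between clusters. Pairs of 2 bait fragments made up 5.76% of the HOXA list in DMSO (2.52 to 11.0) and 4.73% after ponatinib (1.92 to 9.50). They were 20.9% and 16.7% in HOXB, 28.3% and 29.1% in HOXC, and 21.3% and 25.8% in HOXD. The whole lists had 19.1% and 18.7%. HOXC was next to several genes, counted here over the whole gene body and not only on bait fragments. Its fragments met SMUG1 (17 and 18 pairs), ZNF385A, a zinc finger gene (10 and 14), and GPR84, a receptor of myeloid cells (3 and 4). CBX5, which encodes heterochromatin protein HP1 alpha, had 6 and 2, none of them on a bait fragment. Pairs on a fragment with an end of the gene were 9 and 8 for SMUG1 and 7 and 6 for ZNF385A. They were 2 and 3 for GPR84 and 3 and 0 for CBX5. HOXA had the lowest share of pairs of 2 bait fragments in both libraries.

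Genes that work with or regulate HOX genes were counted from a list of 49, of which 31 had a listed bait fragment. They had 190 pairs in DMSO and 243 in ponatinib, and the median log2 ratio of the 25 with at least 5 pairs was 0.15, against 0.08 over all genes. Of the 25, 3 had at least 2-fold more pairs, against the 9.92% of all genes, and 1 at least 2-fold fewer, against 6.26%. CTCF, the insulator protein whose core motif lies in 1 HOXA10 window, had 0 pairs in DMSO and 9 in ponatinib. MEN1, which encodes menin, the partner of the KMT2A methyltransferase, had 2 and 9, and CDX1, a caudal-type activator of HOX genes, 9 and 22. KMT2D, a methyltransferase of enhancers, had 0 and 3. On the other side, RBBP4 and SUZ12, subunits of the Polycomb complex PRC2, had 9 and 4, and 3 and 1, and RAD21, a cohesin subunit, had 8 and 4. EZH2, the methyltransferase of PRC2, had 20 and 33, and KMT2A had 12 and 12. EED and EZH1, also of PRC2, had 20 and 30, and 7 and 10. KMT2D and SUZ12 had fewer than 5 pairs over both lists. MEIS1 and PBX3, which encode cofactors that bind DNA with HOX proteins, had no listed bait fragment by this rule.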

How the data were processed

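Promoter-capture Hi-C was measured in 1 DMSO and 1 ponatinib library of K562 cells. Each deposited list pairs a bait fragment with a partner and adds a score of the authors' making. Coordinates are on hg38 according to the submitters' processing notes. What aligned the reads, what called the pairs and how a score was computed is not given in the sources used here, and the depth is unknown.

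A pair was an unordered pair of fragments. A pair was called shared when the identical fragments were paired in both lists. Distances ran between fragment midpoints. A pair was within a cluster when both fragments overlapped the span from its first to its last HOX gene, and otherwise outward, on the lower or higher side by coordinates. Each listed bait fragment that holds a gene's start or end counts for that gene, 3′ ends included, and 1 fragment can serve several genes. Genes and promoter windows came from RefSeq tables of GRCh38. The table of genes gives no strand, so the direction of each cluster was taken from the promoter table.

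Intervals are exact (Clopper-Pearson) for shares, from order statistics for medians, and Newcombe's for differences. A gene was called different at 2-fold or more with a pseudocount of 1 and at least 5 pairs over both lists. The counting was tested on simulated lists. Python 3.11.15, pandas 2.3.3 and scipy 1.17.1 were used.

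All 38 HOX genes are named. Other genes were taken from those that overlap the most partner fragments of a cluster, lie at its 3 highest scoring pairs or are listed neighbours. Of the cofactor list, the 3 largest gains and losses were named with some fixed names, CDX1, EED and EZH1. Members, lists, stretches and most alternatives were chosen with earlier results of these data known.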

Additional observations from a re-analysis of the deposited data

How the results depend on the processing

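Alternatives were scores of at least 7 or 10, lists of equal length, gene ends within 1 kb, cluster spans extended by 20 kb, HOXB without HOXB13, ends matched within 5 kb, same-chromosome pairs only, a pseudocount of 0.5, a minimum of 10 pairs and scaled numbers. Chosen after seeing the data were any bait fragment overlapping a gene, fragments with a 5′ end only, and each cluster without its fragment with the most pairs. Of 399 values of the main comparisons under these settings 340 were counted as unchanged. A difference from HOXD counted so when its sign, and whether its interval held 0, did not change. Its size could still leave the reported interval. The HOXA minus HOXD difference in ponatinib pairs shared reached -44.5 points, where the reported interval was -34.8 to -7.42. Other values counted so within the interval of the reported value or within 1.5 times a reported count, on whichever side they fell. With ends matched within 5 kb, the shared percent of DMSO and ponatinib pairs was 84.2 and 88.5 in HOXA, 78.3 and 81.2 in HOXB, 85.9 and 84.5 in HOXC, and 77.5 and 87.9 in HOXD, so the ponatinib differences from HOXD became 0.635 points for HOXA, a change of sign, -6.63 for HOXB and -3.41 for HOXC. With gene ends within 1 kb, the HOXB and HOXC differences were -11.5 and -12.1, with intervals that hold 0. With the minimum score at 7 these became -18.9 and -17.0, also with 0 in the interval, and the HOXA difference in pairs with the higher ponatinib score was 20.9 points. There the higher-side share was 5.77% in HOXB in DMSO and 100% and 87.0% in HOXC, the within-cluster share of HOXB in ponatinib was 0, the 2-fold counts were 520 more and 257 fewer over all genes and 1 more over HOX genes, and the cofactor median was 0.74. At scores of at least 10, 60.7% of HOXA pairs were in ponatinib, and the within-cluster share was 0 in HOXB and HOXC in both libraries. Shared percents were then 58.3 in HOXA, 73.9 in HOXB, 70.0 in HOXC and 77.8 in HOXD in DMSO, and 56.7 in HOXB and 82.4 in HOXD in ponatinib. Median distances in ponatinib were 279 kb in HOXB and 508 kb in HOXD, and higher-side shares 91.7% in HOXA, 100% in HOXC and 61.1% in HOXD in DMSO and 96.6% in HOXC in ponatinib. Differences whose intervals then held 0 were 14.3 points (HOXA) and 27.7 points (HOXB) of pairs with the higher ponatinib score, 8.03 points (HOXB) of pairs in ponatinib and -25.7 points (HOXB) of pairs shared. No HOX gene had 2-fold more pairs with lists of equal length or scaled numbers (0 in each). A minimum of 10 pairs left 467 genes with more and 243 with fewer. Same-chromosome pairs put HOXC over HOXD at 11.1 points, without 0 in the interval. Without HOXB13, 2% and 0% of HOXB pairs lay on the higher side. Without the fragment with the most pairs, the higher-side share was 77.8% in HOXA and 15.9% in HOXB in ponatinib, and 63.2% and 61.0% in HOXD; 42.3% of HOXB DMSO pairs were shared, HOXC over HOXD was 15.6 points, now without 0 in its interval, and HOXB over HOXD in pairs with the higher ponatinib score was 23.1 points, with 0 in it. The cause of these changes was not tested. No paired analysis was possible because each treatment has 1 library. Without read counts, what depth limits is unknown.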
